A study of Mus musculus with 14 samples.

Results

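The 37 genes described here encode the machinery that carries glucose into a cell and passes it through glycolysis, the pentose phosphate branch and the glycogen store. They were taken by gene symbol, as a list of pathway genes. All 37 had at least 1 probe among the 20284 genes named on the larger of the 2 array designs used, and 11 of them had several probes, of which the brightest was kept. By role, 4 members move glucose or lactate across the plasma membrane, 4 phosphorylate or isomerise hexose, 6 act at the phosphofructokinase step, 8 belong to lower glycolysis, 4 decide the fate of pyruvate, 4 belong to the pentose phosphate pathway and 7 handle glycogen. All 37 passed the filter on dim signals in some group, that is, both arrays of the group were well above background.

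The study measured RNA from sorted C57BL/6 mouse blood cell progenitors and their descendants on 14 single-colour microarrays, with 2 arrays in each of 7 groups. IRF8KO GMP are labelled as granulocyte-monocyte progenitors from mice lacking IRF8, a transcription factor of the mononuclear phagocyte lineage, and WT GMP are the same gate from wild-type mice (CD117+ and CD16/32+ cells without lineage markers, IL-7R, Sca-1 or CD115). Neu are neutrophils (CD11b+, Ly6G high), CDP are common dendritic cell progenitors (CD117 intermediate, CD115+, CD135+), and pre-cDC are precursors of conventional dendritic cells (CD11c+, MHC-II-, CD135+, CD172a+), all from wild-type bone marrow. CD8+ cDC and CD4+ cDC are the 2 classes of mature conventional dendritic cell of the wild-type spleen (CD11c+, MHC-II+). CD4+ cDC were enriched with magnetic beads alone and Neu were sorted by flow cytometry alone, while the other groups passed through both steps. The labels do not say that the 2 arrays of a group came from separate mice. The p-values measure the spread between the arrays of a group, pooled for each gene over the 6 groups tested, which may be technical. In these bulk samples fewer cells of a type and less RNA per cell cannot be told apart.

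Glycolysis splits glucose into pyruvate, with a committed step at phosphofructokinase, and yields ATP without oxygen when pyruvate is reduced to lactate and exported. The pentose phosphate pathway draws glucose 6-phosphate off the top of the same route to make NADPH and ribose; in neutrophils NADPH feeds the oxidase of the respiratory burst. Glycogen is built from UDP-glucose and broken down by glycogen phosphorylase. Mature neutrophils are known for few mitochondria, a glycogen store and a reliance on glycolysis.

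A level below is the log2 of the background-subtracted signal minus the array's 75th percentile of that signal, so 0 is the 75th percentile, and a difference of 1 between groups is 2-fold. Levels of different genes come from different probes and are not compared. Differences were tested with limma over all 12 arrays of the larger design, and a difference was called when its Benjamini-Hochberg adjusted p, over all genes tested in that comparison, was under 0.05. CD4+ cDC were hybridised to a smaller design and entered no test.

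The targeted gene was checked first. The single Irf8 probe, of unstated position in the transcript, read 6.03 and 5.98 on the arrays labelled IRF8KO, -0.09 and -0.04 in Neu, 4.61 and 4.70 in WT GMP, 8.77 and 8.78 in CDP, 8.92 and 8.93 in pre-cDC and 8.57 and 8.36 in CD8+ cDC. Its level was thus higher on the arrays labelled IRF8KO than in WT GMP, by 1.35 ± 0.07 (SE; adjusted p = 1.6e-05), and the probe cannot check the deletion; a direction given for these arrays rests on their labels. The other labels were set against marker lists. Neutrophil markers averaged 9.68 and 9.78 in Neu and at most 0.43 on any other array of the larger design. Dendritic cell markers averaged 6.02 to 6.06 in CD8+ cDC, 2.97 to 2.998 in pre-cDC and 0.92 to 0.96 in CDP. This list holds Flt3, Itgax and H2-Ab1, which encode gate markers, so part of this order follows from the sort. GMP and primary granule genes averaged 7.87 to 7.88 on the arrays labelled IRF8KO and 7.39 to 7.40 in WT GMP. The 75th percentile of the signal spanned 88.8 units in CDP to 582 units in WT GMP, and 39.4% to 53.7% of probes were well above background on the larger design. Replicate arrays correlated at r = 0.988 to 0.995 over genes, and over the members the median gap between the 2 arrays of a group was 0.0377 to 0.14. The arrays labelled IRF8KO shared a slide with WT GMP, and Neu shared one with CD8+ cDC. For the other comparisons slide and cell type cannot be told apart. The low-input amplification and the number of arrays limit the precision of every value.

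The promoters of 5 members are shown because these genes are described below with large differences between groups: Pfkfb4, Slc16a3 and Pygl were high in Neu, Pygb was low in Neu, and Fbp1 was high on the arrays labelled IRF8KO. Each run is the RefSeq sequence of build GRCm38.p6 from 250 bases before the gene's start to 50 after it, read 5′ to 3′ on the gene's own strand. Capitals mark matches, on both strands, to ACGTG or GCGTG, the core letters of sites of the hypoxia-inducible factors, to TTGCNNAA, a C/EBP-type palindrome, or to GAGGAAGT, an ETS-type site of the kind PU.1 binds.
Pfkfb4 (chr9:108991652-108991951, plus strand): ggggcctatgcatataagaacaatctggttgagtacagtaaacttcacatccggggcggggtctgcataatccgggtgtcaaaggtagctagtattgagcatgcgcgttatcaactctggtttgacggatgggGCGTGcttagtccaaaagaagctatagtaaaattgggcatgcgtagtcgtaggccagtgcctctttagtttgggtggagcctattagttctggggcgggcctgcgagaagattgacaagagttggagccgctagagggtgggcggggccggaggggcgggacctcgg
Slc16a3 (chr11:120948817-120949116, plus strand): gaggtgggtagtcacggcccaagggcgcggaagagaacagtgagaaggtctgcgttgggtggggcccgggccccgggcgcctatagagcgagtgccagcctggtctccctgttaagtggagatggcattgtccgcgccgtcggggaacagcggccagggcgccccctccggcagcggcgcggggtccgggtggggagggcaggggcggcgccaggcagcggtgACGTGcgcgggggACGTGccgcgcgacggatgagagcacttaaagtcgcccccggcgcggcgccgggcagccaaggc
Pygl (chr12:70227634-70227933, minus strand): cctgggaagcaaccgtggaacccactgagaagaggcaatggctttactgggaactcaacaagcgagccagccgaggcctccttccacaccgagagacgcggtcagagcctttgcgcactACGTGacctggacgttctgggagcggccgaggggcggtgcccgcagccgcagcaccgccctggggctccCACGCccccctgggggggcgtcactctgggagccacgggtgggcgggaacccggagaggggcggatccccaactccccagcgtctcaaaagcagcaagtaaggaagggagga
Pygb (chr2:150786546-150786845, plus strand): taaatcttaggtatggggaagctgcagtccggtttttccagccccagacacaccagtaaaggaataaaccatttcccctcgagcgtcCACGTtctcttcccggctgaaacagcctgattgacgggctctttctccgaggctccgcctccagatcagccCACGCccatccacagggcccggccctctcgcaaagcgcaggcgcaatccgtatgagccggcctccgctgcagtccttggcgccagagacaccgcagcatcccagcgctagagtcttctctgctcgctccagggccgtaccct
Fbp1 (chr13:62888233-62888532, minus strand): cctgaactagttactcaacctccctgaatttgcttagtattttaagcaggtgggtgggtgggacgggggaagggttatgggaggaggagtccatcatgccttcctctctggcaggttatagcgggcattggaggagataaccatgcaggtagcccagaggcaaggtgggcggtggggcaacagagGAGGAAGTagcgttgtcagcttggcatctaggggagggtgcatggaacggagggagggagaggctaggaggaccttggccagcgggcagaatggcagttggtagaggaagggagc
RefSeq promoters were matched for 36 of the 37 members, 51 sequences in all because 11 members had several starts; Slc2a3 is named only. ACGTG or GCGTG occurred in 39 of these 51 promoters (76.5%), in 58.5% of the 13733 promoters of the other genes fitted, and in 43.8% of all 32851 promoters in the table. Some sequences of a gene overlap, as for Eno1, Aldoa and Pfkm, so a match can be counted more than once. Taken singly, ACGTG was in 24 of the 51 member promoters and in 19.6% of all promoters, and GCGTG was in 28 of the 51 and in 32.4% of all. The single strings were not counted over the other genes fitted. The palindrome CACGTG holds ACGTG on both strands. Member promoters were richer in G and C than the table as a whole, with a median of 60.7%, against 59.7% for the other genes fitted and 52.7% for all promoters. TTGCNNAA was in 3 of the 51 member promoters, against 10.8% of all, and GAGGAAGT was in 1, that of Fbp1, against 3.2% of all. The promoters of Pygl, high in Neu, and of Pygb, low in Neu, both hold each of ACGTG and GCGTG. A match is a string of letters and not a measured site.

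**Figure D1:**
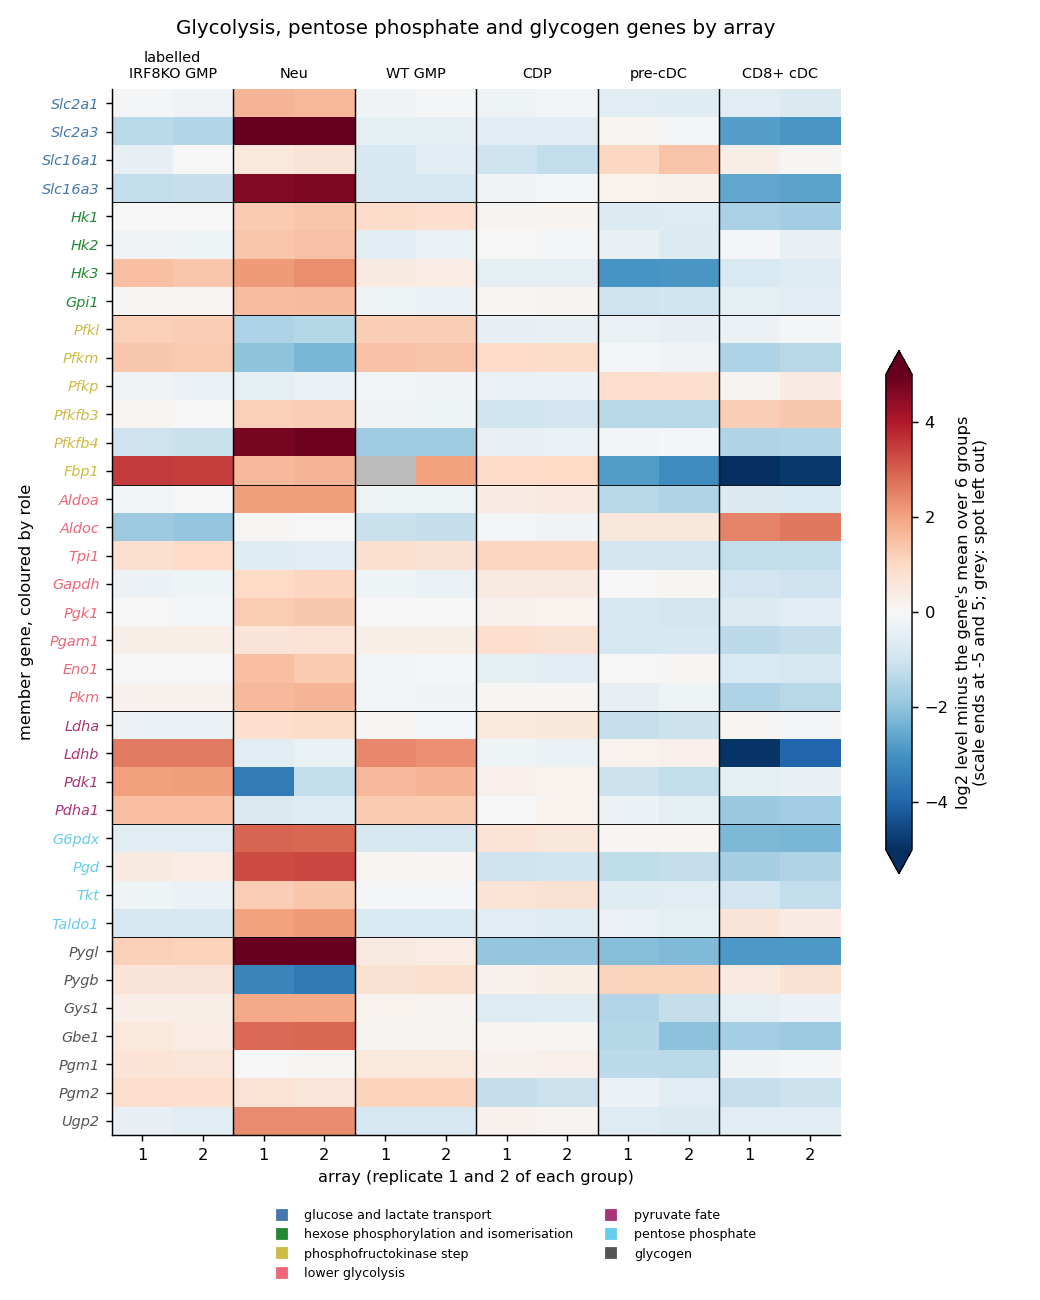
Levels of the 37 members (rows, by role) on the 12 arrays of the larger design (columns), as the log2 level minus the gene's mean over the 6 groups; the colour scale runs from -5 to 5, and the grey cell is the Fbp1 spot left out on WT GMP replicate 1. Neu held the highest group mean for 22 members and CD8+ cDC the lowest for 17.

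Across the 6 groups of the larger design the members were highest in Neu more often than in any other group. Neu had the highest group mean for 22 members, the arrays labelled IRF8KO for 5, WT GMP and pre-cDC for 3 each, and CDP and CD8+ cDC for 2 each. CD8+ cDC had the lowest mean for 17 members and pre-cDC for 9. Both Neu arrays lay above the other 10 for 22 members, where 29.1% of all 15058 genes above background on some array did so, and below the other 10 for 3 members, where 27% of all genes did so. Both CD8+ cDC arrays lay below the rest for 15 members, where 12.3% of all genes did so.

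The 4 transporters did not follow one profile. Slc2a3, which encodes the high-affinity glucose transporter GLUT3, read 0.90 and 0.78 on the arrays labelled IRF8KO, 7.47 and 7.46 in Neu, 1.75 and 1.74 in WT GMP, 1.66 and 1.69 in CDP, 2.33 and 2.18 in pre-cDC and -0.51 and -0.66 in CD8+ cDC. Neu stood far above the rest, CD8+ cDC were lowest, and WT GMP and CDP lay within 0.1 of each other. Slc2a1, the gene of the ubiquitous transporter GLUT1, spanned a narrower range, with 2.82 and 2.79 in Neu and 0.40 to 1.03 elsewhere. Slc16a3, which encodes the lactate exporter MCT4, read 1.35 and 1.42 on the arrays labelled IRF8KO, 7.17 and 7.23 in Neu, 1.76 and 1.70 in WT GMP, 2.38 and 2.48 in CDP, 2.74 and 2.79 in pre-cDC and -0.02 and -0.12 in CD8+ cDC. It shared with Slc2a3 the peak in Neu and the minimum in CD8+ cDC. Slc16a1, the gene of the monocarboxylate transporter MCT1, was highest in pre-cDC, at -0.72 and -0.30, and lowest in CDP, at -2.78 and -2.98; Neu read -1.20 and -1.10.

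Hexokinases trap glucose in the cell by phosphorylating it, and the 3 measured isoforms were ordered differently across the groups. Hk3, the isoform typical of myeloid cells, read 6.14 and 6.03 on the arrays labelled IRF8KO, 6.76 and 6.98 in Neu, 5.09 and 5.02 in WT GMP, 4.18 on both arrays in CDP, 1.70 and 1.74 in pre-cDC and 3.86 and 4.01 in CD8+ cDC. Its minimum lay in pre-cDC and its level was higher again in CD8+ cDC. Hk1, the housekeeping isoform, read 4.41 and 4.42 on the arrays labelled IRF8KO, 5.70 and 5.77 in Neu, 5.30 and 5.24 in WT GMP, 4.53 on both arrays in CDP, 3.72 and 3.74 in pre-cDC and 2.77 and 2.64 in CD8+ cDC. From WT GMP through CDP and pre-cDC to CD8+ cDC each step was lower than the one before. Hk2, the inducible isoform, read 3.51 and 3.58 in Neu and 1.42 to 2.09 on the other 10 arrays. Gpi1, which converts glucose 6-phosphate to fructose 6-phosphate, read 9.52 and 9.58 in Neu and 6.97 to 8.14 elsewhere.

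At the phosphofructokinase step the bifunctional enzymes, which set the level of the activator fructose 2,6-bisphosphate, and the catalytic subunits went different ways. Pfkfb4, one of these bifunctional enzymes, read 1.34 and 1.26 on the arrays labelled IRF8KO, 7.14 and 7.24 in Neu, 0.62 and 0.60 in WT GMP, 2.01 and 2.07 in CDP, 2.26 and 2.34 in pre-cDC and 0.88 and 0.93 in CD8+ cDC. No other group came within 4 log2 units of Neu. Pfkfb3, its paralogue in which kinase activity prevails, read 4.40 and 4.43 in Neu and 4.44 and 4.54 in CD8+ cDC, the 2 highest groups, and was lowest in pre-cDC, at 1.82 and 1.81. Pfkm, the muscle-type catalytic subunit, read 2.47 and 2.44 on the arrays labelled IRF8KO, -0.88 and -1.18 in Neu, 2.60 and 2.56 in WT GMP, 2.09 and 2.05 in CDP, 1.04 and 0.93 in pre-cDC and -0.41 and -0.25 in CD8+ cDC. Neu were lowest for it, as for the liver-type subunit Pfkl, which read -0.13 and 0.02 in Neu, 2.64 and 2.67 in WT GMP and 1.02 to 1.32 in CDP, pre-cDC and CD8+ cDC. The platelet-type subunit Pfkp was highest in pre-cDC, at 2.95 and 2.91, and read 1.62 to 2.50 on the other arrays.

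Fbp1, which encodes the gluconeogenic enzyme fructose 1,6-bisphosphatase, read 3.38 and 3.34 on the arrays labelled IRF8KO, 1.48 and 1.57 in Neu, 0.85 and 0.89 in CDP, -2.93 and -3.26 in pre-cDC and -5.56 and -4.96 in CD8+ cDC. In WT GMP its spot on replicate 1 was an outlier and was left out, so WT GMP has the single value 1.88 and the fit drops that sample for this gene. In pre-cDC and CD8+ cDC the probe was not well above background on either array, so those values are bounds.

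**Figure D2:**
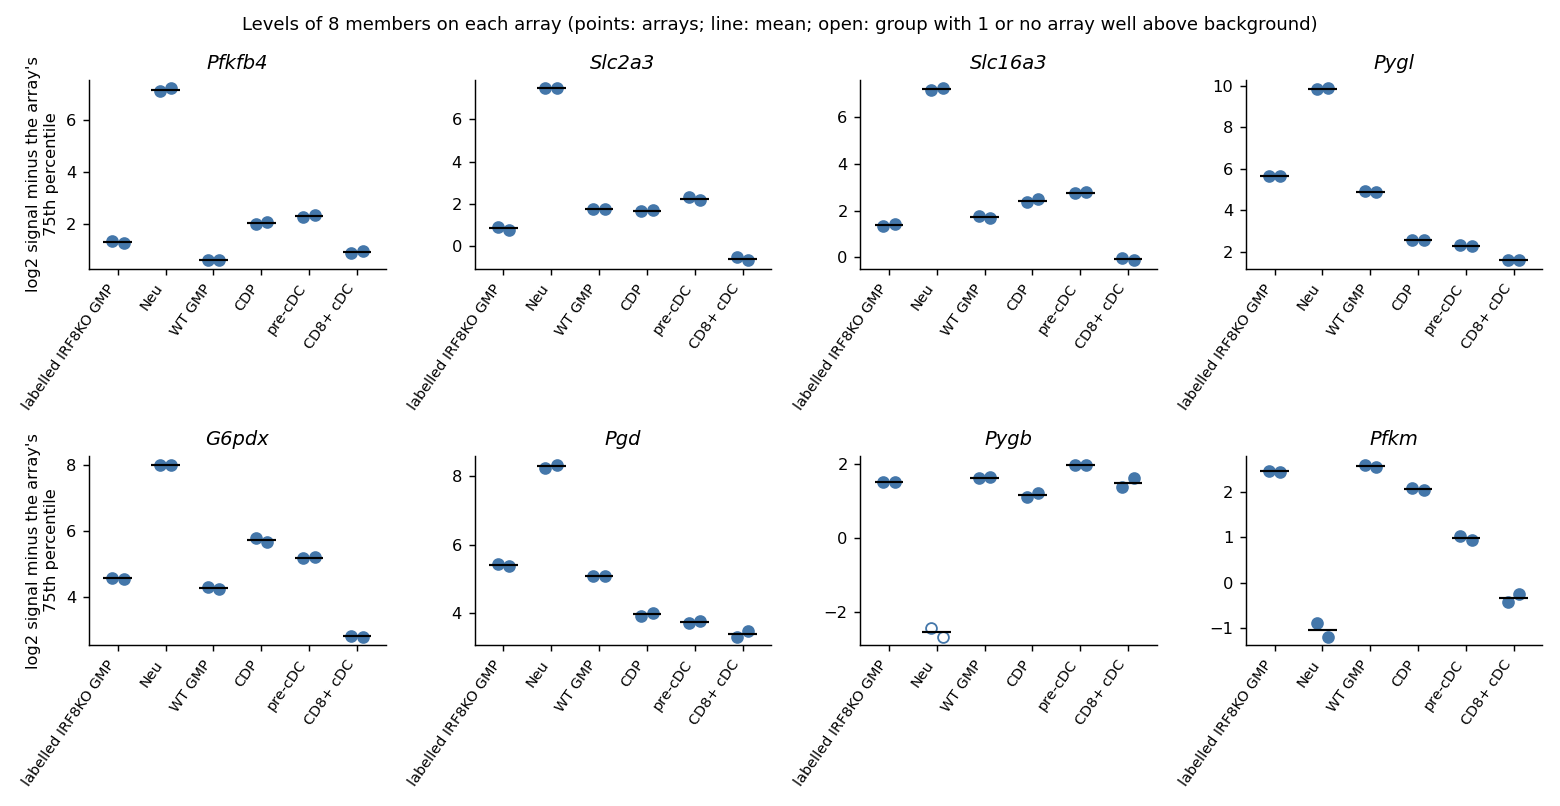
Log2 level relative to the array's 75th percentile of 8 members on each of the 12 arrays, by group; each point is 1 array, and open points mark groups in which 1 array or none was well above background. Pfkfb4, Slc2a3, Slc16a3, Pygl, G6pdx and Pgd were highest on both Neu arrays, whereas Pygb and Pfkm were lowest there.

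In lower glycolysis the 2 aldolases peaked in different cells. Aldoc, the brain-type aldolase, read -0.92 and -1.01 on the arrays labelled IRF8KO, 0.94 and 0.88 in Neu, -0.20 and -0.27 in WT GMP, 0.82 and 0.74 in CDP, 1.48 on both arrays in pre-cDC and 3.39 and 3.53 in CD8+ cDC. It was lowest on the arrays labelled IRF8KO and highest in CD8+ cDC. Aldoa, the isoform found in most tissues, peaked instead in Neu, at 9.69 and 9.71, and was lowest in pre-cDC, at 6.24 and 6.11. Among the single-enzyme steps, Tpi1, triose phosphate isomerase, read 4.65 and 4.72 in Neu and 6.02 and 6.002 in WT GMP. Gapdh, which makes the first NADH-linked step, read 9.93 and 10.002 in Neu and 8.72 and 8.63 in WT GMP. Pkm, the pyruvate kinase of most tissues other than liver and red cells, read 7.93 and 7.98 in Neu and 6.17 and 6.12 in WT GMP.

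Among the genes that direct pyruvate the 2 lactate dehydrogenase subunits had different profiles. Ldhb, the lactate dehydrogenase subunit of oxidative tissues, read 2.98 and 2.98 on the arrays labelled IRF8KO, -0.15 and 0.04 in Neu, 2.77 and 2.67 in WT GMP, 0.11 and 0.04 in CDP, 0.55 and 0.65 in pre-cDC and -4.53 and -3.58 in CD8+ cDC. Both GMP groups were high, and in CD8+ cDC only 1 of the 2 arrays was well above background. Ldha, the subunit that favours lactate production, stayed between 6.71 and 8.78 on all 12 arrays. Pdk1, a kinase that switches off pyruvate dehydrogenase, read 2.23 and 2.25 on the arrays labelled IRF8KO, -3.33 and -1.06 in Neu, 1.79 and 1.88 in WT GMP, 0.42 and 0.36 in CDP, -0.89 and -1.06 in pre-cDC and -0.29 and -0.19 in CD8+ cDC. The 2 Neu arrays disagreed on it, and 1 of them was not well above background. Pdha1, the catalytic subunit of pyruvate dehydrogenase, was high in both GMP groups, at 3.34 and 3.33 on the arrays labelled IRF8KO and 3.12 and 3.14 in WT GMP, and lowest in CD8+ cDC, at -0.04 and 0.07.

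The 4 pentose phosphate members all peaked in Neu. G6pdx, the rate-limiting dehydrogenase that makes the first NADPH, read 4.59 and 4.55 on the arrays labelled IRF8KO, 8.01 and 7.99 in Neu, 4.32 and 4.26 in WT GMP, 5.78 and 5.67 in CDP, 5.19 and 5.21 in pre-cDC and 2.84 and 2.81 in CD8+ cDC. Pgd, the second NADPH-producing dehydrogenase, read 5.45 and 5.37 on the arrays labelled IRF8KO, 8.24 and 8.34 in Neu, 5.08 on both arrays in WT GMP, 3.93 and 4.0002 in CDP, 3.72 and 3.78 in pre-cDC and 3.31 and 3.48 in CD8+ cDC. Both had their minimum in CD8+ cDC, but CDP were above WT GMP for G6pdx and below for Pgd. The non-oxidative enzymes moved less: Tkt, transketolase, read 8.57 and 8.69 in Neu and 6.07 to 8.08 elsewhere. Taldo1, transaldolase, read 10.14 and 10.24 in Neu and 7.21 to 8.76 elsewhere.

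The 2 measured glycogen phosphorylase isozymes had opposite profiles in Neu. Pygl, the liver-type glycogen phosphorylase, read 5.66 and 5.63 on the arrays labelled IRF8KO, 9.84 and 9.87 in Neu, 4.93 and 4.86 in WT GMP, 2.55 and 2.56 in CDP, 2.33 and 2.29 in pre-cDC and 1.62 and 1.61 in CD8+ cDC. Pygb, the brain-type phosphorylase, read 1.51 and 1.52 on the arrays labelled IRF8KO, -2.43 and -2.67 in Neu, 1.62 and 1.66 in WT GMP, 1.11 and 1.21 in CDP, 1.99 and 1.98 in pre-cDC and 1.38 and 1.62 in CD8+ cDC. Neu thus had the highest Pygl and the lowest Pygb, with 1 of 2 Neu arrays well above background for Pygb. Gbe1, the branching enzyme, read 2.52 and 2.40 on the arrays labelled IRF8KO, 4.83 and 4.86 in Neu, 2.13 and 2.15 in WT GMP, 2.09 and 2.08 in CDP, 0.58 and -0.05 in pre-cDC and 0.32 and 0.18 in CD8+ cDC. Gys1, glycogen synthase, read 4.25 and 4.28 in Neu and 0.90 to 2.70 elsewhere, and Ugp2, which makes UDP-glucose, read 4.95 and 4.98 in Neu and 1.75 to 2.82 elsewhere. Phosphoglucomutase genes ran against these: Pgm1 (gene ID 72157, older symbol Pgm2) read 3.53 and 3.59 in Neu and 4.05 on both arrays in WT GMP, and Pgm2 (gene ID 66681, older symbol Pgm1) read 0.28 and 0.17 in Neu and 0.71 and 0.73 in WT GMP.

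**Figure D3:**
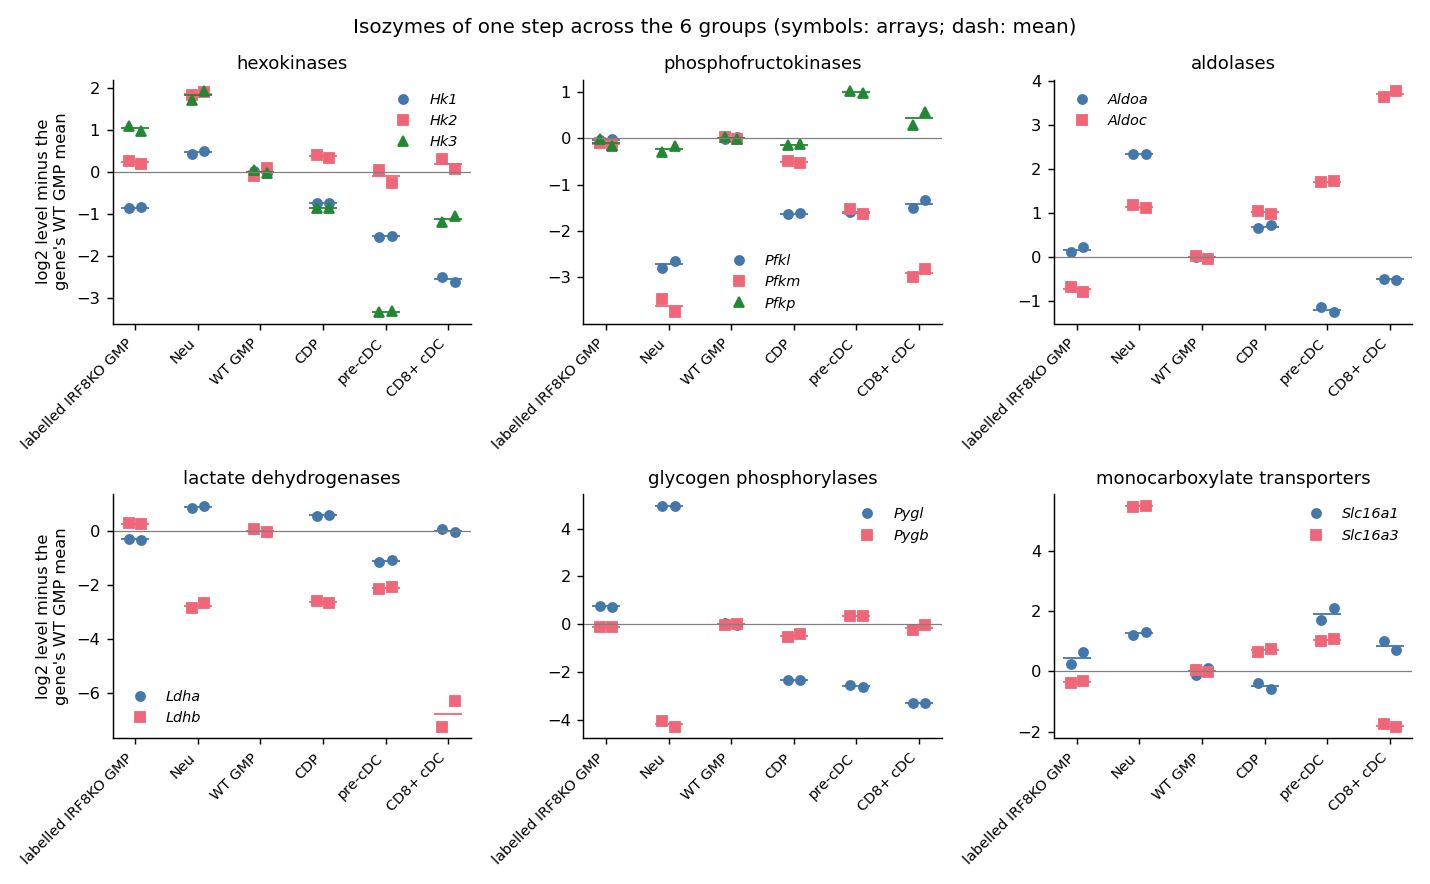
Levels of isozyme families on the 12 arrays, as the log2 level minus the same gene's WT GMP mean, 1 panel for each of 6 families, with 1 point per array. In Neu, Pygl was 4.95 above and Pygb 4.19 below its own WT GMP mean, and Pfkm was 3.61 below while Slc16a3 was 5.47 above.

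Neutrophils set against WT GMP compare a mature granulocyte with a progenitor gate. Among the members, the transport, pentose phosphate and most lower glycolysis genes were higher in Neu, as were Pygl, Gys1, Gbe1 and Ugp2. The catalytic phosphofructokinase subunits Pfkl and Pfkm, Ldhb, Pdk1, Pdha1 and Pygb were lower. Of the 37 members, 26 rose and 9 fell (94.6% called), in a comparison where 92.2% of all 12521 genes tested were called, 47.1% higher and 45.1% lower, so the count alone is close to the background. By size, 23 members rose and 7 fell by at least 2-fold, where 35.2% of all genes rose and 35.5% fell that far. The members' median difference was 1.39, against 0.0732 for all genes tested.

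By role, all 4 transporters rose: Slc2a3 by 5.72 ± 0.08 (SE; 52.7-fold, adjusted p = 1.99e-10) and Slc16a3 by 5.47 ± 0.06 (44.4-fold, adjusted p = 1.31e-10). Slc2a1 rose by 1.82 ± 0.07 and Slc16a1 by 1.26 ± 0.19. Hexose phosphorylation and isomerisation was higher for Hk2 by 1.86 ± 0.12, Hk3 by 1.82 ± 0.09 and Gpi1 by 1.83 ± 0.05. Hk1 was called higher, by 0.47 ± 0.06, but its probes disagreed, from -0.80 to 0.47, and its sign turned under other scalings. At the phosphofructokinase step Pfkfb4 rose by 6.58 ± 0.06 (95.9-fold, adjusted p = 7.98e-11), the largest difference of any member in this comparison, and Pfkfb3 rose by 1.40 ± 0.06. Pfkm fell by 3.61 ± 0.10 (12.2-fold, adjusted p = 6.01e-09) and Pfkl fell by 2.72 ± 0.07 (6.57-fold). Pfkp and Fbp1 were not called, at -0.24 ± 0.10 and -0.35 ± 0.24. Pfkp was called lower under 4 of the 5 other scalings, and its second probe read -2.02. Fbp1, with a single WT GMP array, was called lower under 3 of the 5 and read 0.76 in the authors' processed value table.

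In lower glycolysis 7 of 8 members rose and Tpi1 fell by 1.33 ± 0.06. Aldoa rose by 2.34 ± 0.06, Pkm by 1.81 ± 0.07, Eno1, enolase, by 1.54 ± 0.07, Gapdh by 1.29 ± 0.06, Pgk1, phosphoglycerate kinase, by 1.29 ± 0.07, and Aldoc by 1.15 ± 0.07. The size for Gapdh varied: its 7 probes ran from 0.16 to 1.29, and it was 0.14 in the authors' processed value table. Pgam1, phosphoglycerate mutase, was called higher at 0.38 ± 0.06, with a sign that turned under other scalings. Among the genes of pyruvate fate Ldhb fell by 2.78 ± 0.26 (6.85-fold, adjusted p = 1.19e-05) and Pdha1 fell by 2.01 ± 0.09 (4.03-fold). Pdk1 fell by 4.03 ± 0.59 (adjusted p = 2.31e-04), a size set by 1 array, since it fell by 2.90 without Neu replicate 1 and by 5.16 without Neu replicate 2. Ldha was called higher by 0.88 ± 0.07, although its probes disagreed, from -0.35 to 0.88.

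All 4 pentose phosphate members rose by at least 2-fold, G6pdx by 3.71 ± 0.05 (13.1-fold, adjusted p = 2.76e-10), Pgd by 3.21 ± 0.07 (9.27-fold), Taldo1 by 2.85 ± 0.08 and Tkt by 1.39 ± 0.10. In glycogen metabolism Pygl rose by 4.95 ± 0.05 (31.0-fold, adjusted p = 8.70e-11), Ugp2 by 3.21 ± 0.06, Gbe1 by 2.71 ± 0.17 and Gys1 by 1.74 ± 0.09. Pygb fell by 4.19 ± 0.10 (18.3-fold, adjusted p = 2.75e-09), with 1 of 2 Neu arrays above background, and fell by 2.87 with normexp background correction. Pgm1 and Pgm2 fell by 0.49 ± 0.05 and 0.50 ± 0.08. The direction and call of 24 of the 26 higher and all 9 lower members held under the 5 scalings tried, and Hk1 and Pgam1 did not hold.

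Of 55 other genes of the same pathways that were tested, 21 rose and 30 fell. Among them 2 of 6 pentose phosphate genes rose and 4 fell, and 6 of 16 glycogen genes rose and 10 fell. Of 14 other glycolysis genes, 7 rose and 6 fell. Slc2a6, which encodes the transporter GLUT6, rose by 6.24 ± 0.07 (adjusted p = 1.07e-10). Prps1 fell by 6.02 ± 0.12, and Prps2 was at least 19.1-fold lower in Neu, both encoding synthetases that carry ribose 5-phosphate into nucleotides. Myc, the growth-promoting transcription factor, was at least 130-fold lower in Neu. An at-least fold is the brighter group's mean against the detection floor of the dimmer one, on the scaling of the report only. Proliferation genes averaged 0.54 to 0.62 in Neu and 4.38 to 4.40 in WT GMP. B cell markers averaged -2.29 in Neu, where 3 of 4 were well above background and Ebf1 was not, and -5.53 to -5.04 in WT GMP, where none was. Basophil and mast cell markers averaged -2.40 to -2.28 in Neu and 3.07 to 3.13 in WT GMP, and 5 of 5 fell. The part of these in the differences was not tested.

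**Figure D4:**
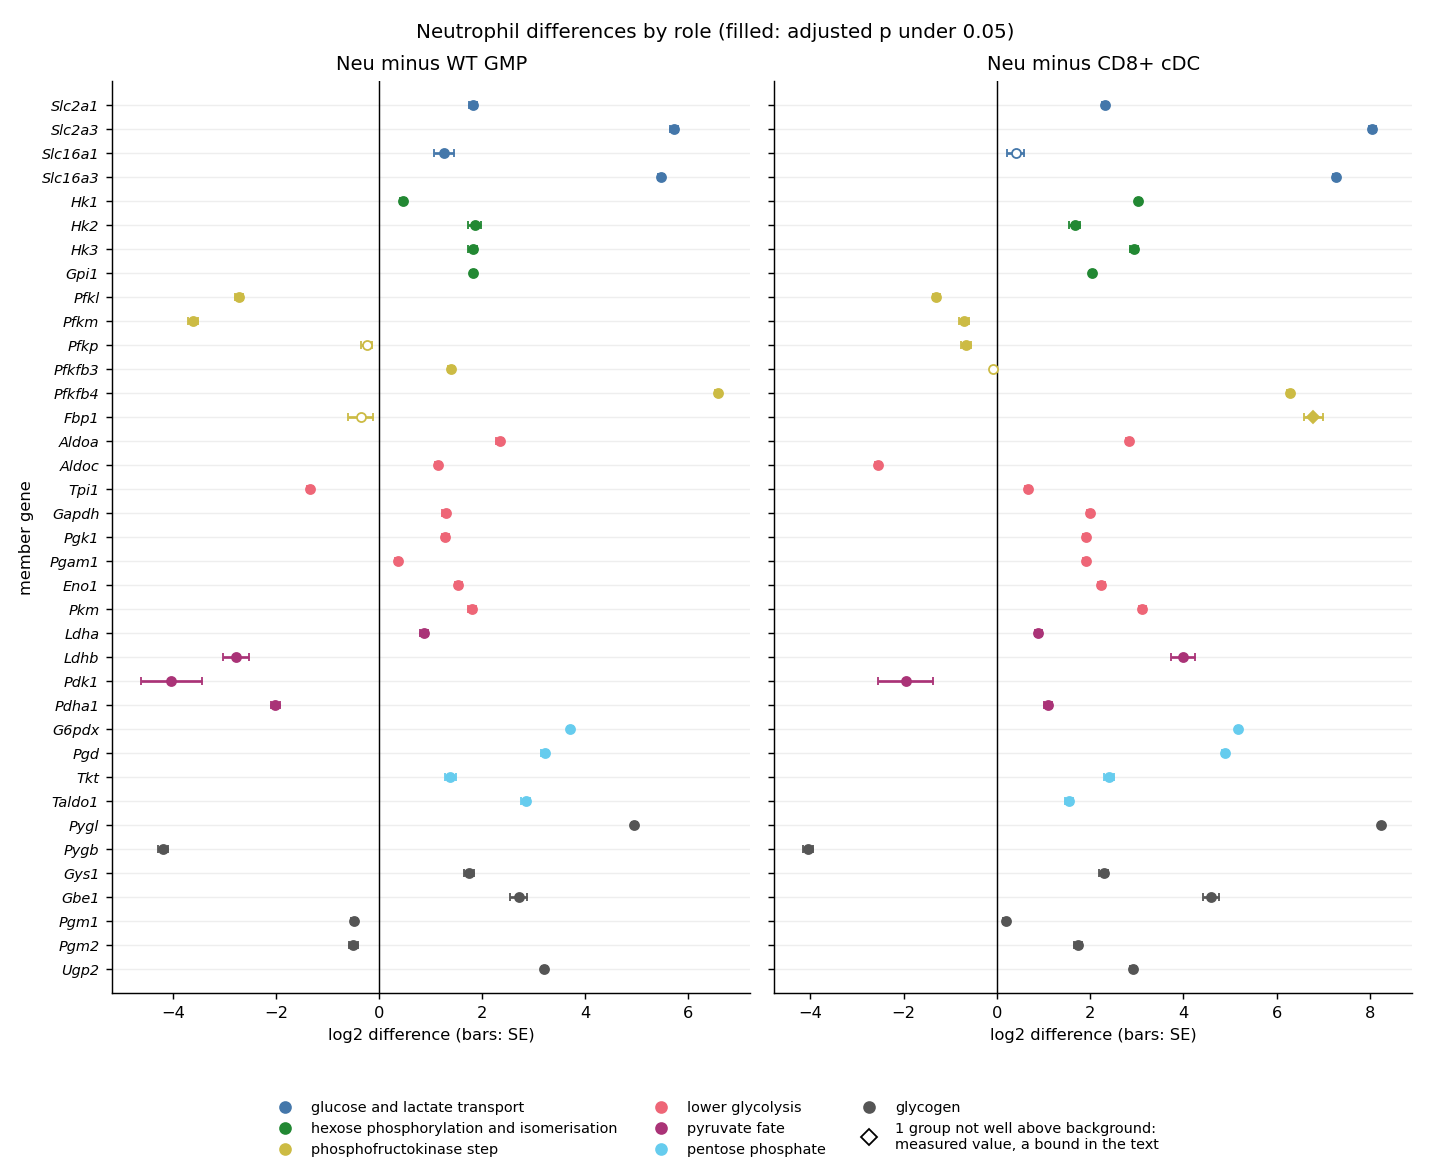
Differences (log2, with SE bars) of each member, by role, for Neu minus WT GMP and Neu minus CD8+ cDC; filled points were called at an adjusted p under 0.05, open points were not, and the diamond is a measured value for which 1 group lay below background, given as a bound in the text. Pentose phosphate members lay right of 0 in both comparisons, whereas Pfkl, Pfkm, Pdk1 and Pygb lay left of 0 in both.

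Neu and CD8+ cDC are the 2 mature end cells on the larger design and lay on 1 slide. Here 29 members were higher in Neu and 6 lower (94.6% called), where 86.2% of all 12817 genes tested were called, 43.4% higher and 42.8% lower. At least 2-fold, 26 members were higher and 4 lower, where 27.2% and 31.5% of all genes were. The members' median difference was 2.05, against 0.0557 for all genes tested. This comparison and the one with WT GMP share the Neu arrays, so each is given with its own values.

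Pygl was higher in Neu by 8.24 ± 0.05 (SE; 302-fold, adjusted p = 2.35e-11), Slc2a3 by 8.05 ± 0.08 (265-fold) and Slc16a3 by 7.27 ± 0.06 (154-fold). Pfkfb4 was higher by 6.29 ± 0.06 (78.0-fold, adjusted p = 7.48e-11), and Slc2a1 by 2.32 ± 0.07. The oxidative pentose phosphate members differed more than the non-oxidative ones: G6pdx by 5.18 ± 0.05 (36.2-fold), Pgd by 4.89 ± 0.07 (29.8-fold), Tkt by 2.40 ± 0.10 and Taldo1 by 1.55 ± 0.08. Fbp1 was at least 44.7-fold higher in Neu on the scaling of the report. Its difference ran from 3.24 to 6.58 under the other scalings. Ldhb, lower in Neu than in WT GMP, was higher in Neu than in CD8+ cDC, by 3.999 ± 0.26 (adjusted p = 1.32e-06), and by 1.86 with normexp background correction. Gbe1 was higher by 4.60 ± 0.17 and Ugp2 by 2.92 ± 0.06. All 4 hexose members were higher, Hk1 by 3.03 ± 0.06, Hk3 by 2.94 ± 0.09, Gpi1 by 2.05 ± 0.05 and Hk2 by 1.67 ± 0.12.

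Lower glycolysis was higher in Neu for 7 of 8 members, among them Pkm by 3.12 ± 0.07, Aldoa by 2.83 ± 0.06, Gapdh by 2.001 ± 0.06 and Eno1 by 2.24 ± 0.07. Aldoc was lower by 2.55 ± 0.07 (5.87-fold, adjusted p = 5.99e-09). Pygb was lower in Neu by 4.05 ± 0.10 (16.6-fold, adjusted p = 4.41e-09; -2.65 with normexp), and the catalytic subunits were lower too, Pfkl by 1.29 ± 0.07, Pfkm by 0.70 ± 0.10 and Pfkp by 0.66 ± 0.10. Pdk1 was lower by 1.95 ± 0.59 (adjusted p = 0.0141). Its size depended on the Neu arrays: the difference was -0.82 without Neu replicate 1 and -3.09 without Neu replicate 2, with the call kept. Without CD8+ cDC replicate 2 the difference was -1.91 and the call was lost. Slc16a1 and Pfkfb3 were not called, at 0.40 ± 0.19 and -0.07 ± 0.06. With the 4 arrays of this slide fitted alone, 34 members were called, where 85.8% of all genes tested were. Slc16a1 was gained and Pdk1 and Pgm1 were lost, Pdk1 at an adjusted p of 0.0901. The other pathway genes again split, with 23 higher and 30 lower of 57 tested. Ppp1r3d, which targets protein phosphatase 1 to glycogen, was higher in Neu by 8.07 ± 0.12, and Adpgk, an ADP-dependent glucokinase, by 5.31 ± 0.06. Egln3, a prolyl hydroxylase that marks hypoxia-inducible factors for decay, was at least 51.9-fold higher, and Stbd1, a glycogen-binding protein, at least 61.6-fold lower. Proliferation genes averaged 0.54 to 0.62 in Neu and 3.17 to 3.25 in CD8+ cDC, and B cell markers -2.29 in Neu and -2.80 to -2.55 in CD8+ cDC; their part in the differences was not tested.

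The arrays labelled IRF8KO and WT GMP hold the same gate, labelled with 2 genotypes. Fbp1, Hk3, Pygl and Pfkfb4 were higher on the arrays labelled IRF8KO, and Slc2a3, Hk1 and Aldoc lower. Of the 37 members, 10 rose and 6 fell (43.2%), where 25.7% of all 12156 genes tested were called, 15.2% higher and 10.5% lower. Only 2 members, Fbp1 and Hk3, rose by at least 2-fold, where 2.46% of all genes did, and none fell that far. The members' median was 0.102, against 0.0296 for all genes tested. The count of 16 depends on single arrays and on the scaling: it was 10 without IRF8KO replicate 1 and without WT GMP replicate 2, and 9 when each array was set to its median over all probes. Fitted on the 4 arrays of their shared slide alone, 20 members were called, where 37.6% of all genes tested were.

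Fbp1 rose by 1.48 ± 0.24 (SE; 2.79-fold, adjusted p = 0.00558), against the single WT GMP array that measured it, which the fit assumes to vary like the other groups. Under the other scalings this difference was 1.44 to 2.58, the highest in the authors' processed value table. Outlier spots were not left out of that table, so scaling is not all that differs there. Hk3 rose by 1.03 ± 0.09 (2.05-fold, adjusted p = 1.43e-04), while Hk1 fell by 0.85 ± 0.06 (1.81-fold, adjusted p = 4.59e-05), so the 2 hexokinases moved in opposite directions. Pygl rose by 0.75 ± 0.05 (1.68-fold, adjusted p = 3.49e-05). Pfkfb4 rose by 0.69 ± 0.06 (1.61-fold, adjusted p = 1.79e-04), a call lost when its probes were averaged. Slc2a3 fell by 0.91 ± 0.08 (1.87-fold, adjusted p = 1.34e-04) and Aldoc fell by 0.73 ± 0.07 (1.66-fold, adjusted p = 2.15e-04). With Pkm, at 0.37 ± 0.07, these are the 8 members called in the same direction under all 5 scalings, and the Pkm call was lost without WT GMP replicate 2. The other 8 calls were smaller and held under some scalings only: Ugp2 at 0.37 ± 0.06, Gpi1 at 0.34 ± 0.05, Pgd at 0.33 ± 0.07, G6pdx at 0.28 ± 0.05, Pfkfb3 at 0.25 ± 0.06, Slc16a3 at -0.34 ± 0.06, Ldha at -0.32 ± 0.07 and Pgm2 at -0.29 ± 0.08. Of the 8 alternatives other than scaling, 6 lost the Pgm2 call, 5 that of Pfkfb3, 3 each those of Ldha and Pgd, 2 that of G6pdx and 1 that of Slc16a3.

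**Figure D5:**
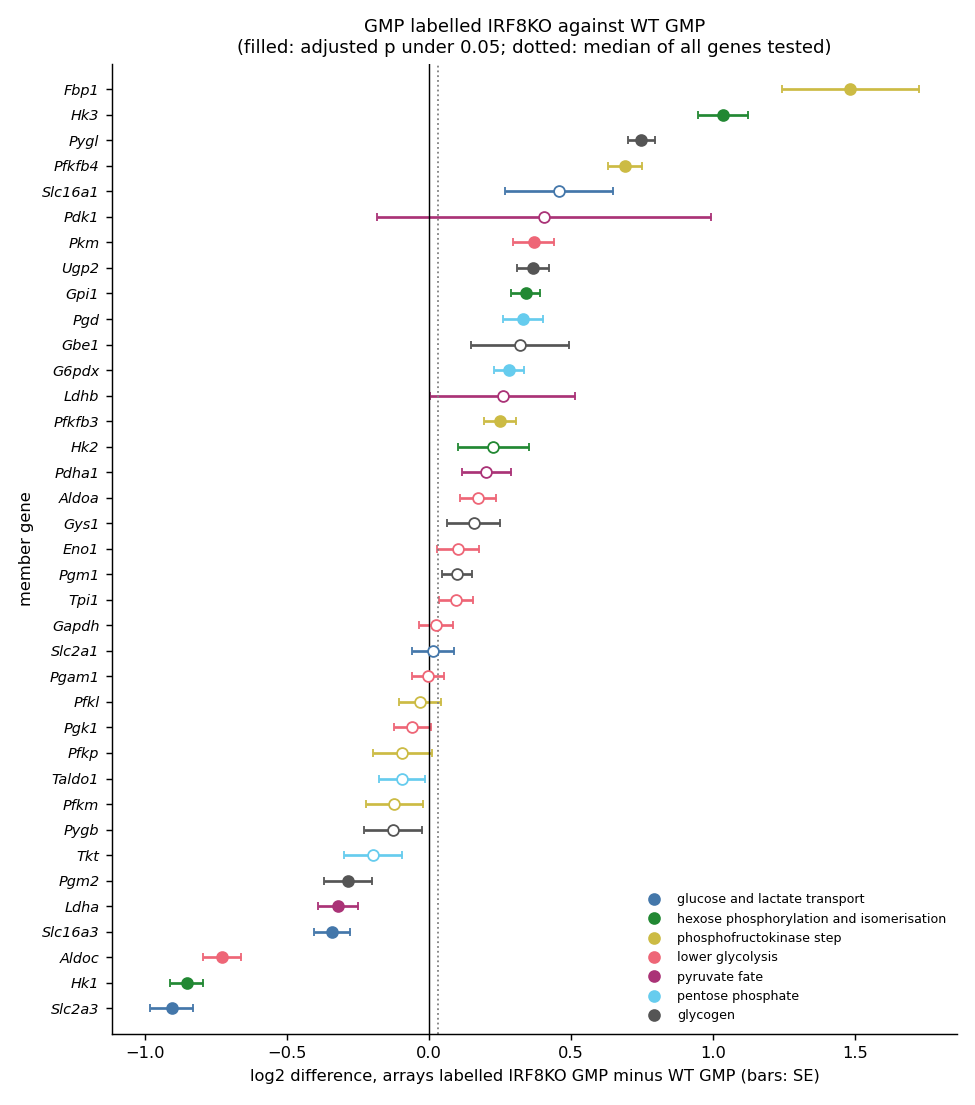
Difference (log2, with SE bars) between the arrays labelled IRF8KO and WT GMP for each of the 37 members; filled points were called at an adjusted p under 0.05, open points were not, and the dotted line is the median of all genes tested, 0.0296. Fbp1, at 1.48, and Hk3, at 1.03, lie farthest right, and Slc2a3, at -0.91, farthest left.

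Set beside the Neu comparison, which shares the WT GMP arrays, the leading members read as follows. Pygl differed by 0.75 on the arrays labelled IRF8KO and 4.95 in Neu, Pfkfb4 by 0.69 and 6.58, and Hk3 by 1.03 and 1.82. Slc2a3 differed by -0.91 on the arrays labelled IRF8KO and 5.72 in Neu, Hk1 by -0.85 and 0.47, and Aldoc by -0.73 and 1.15. Marker lists differed between the same arrays. Neutrophil markers averaged -1.04 on the arrays labelled IRF8KO, where Mmp9 was not above background, and -2.61 to -2.36 in WT GMP, where Ltf, Ngp, Retnlg and Mmp9 were not; 5 of the 7 tested rose. Monocyte markers averaged 1.92 to 1.94 on the arrays labelled IRF8KO and 0.44 to 0.45 in WT GMP, and 6 of 6 rose. Of the erythroid markers, 5 of 5 tested fell by at least 2-fold on the arrays labelled IRF8KO. Basophil and mast cell markers averaged 0.79 to 0.82 on the arrays labelled IRF8KO and 3.07 to 3.13 in WT GMP, and 5 of 5 fell. Their part in the members' differences was not tested. Among other pathway genes 17 rose and 3 fell of 55 tested, with Slc16a7, which encodes the pyruvate transporter MCT2, at 1.33 ± 0.33 (adjusted p = 0.0222). Tigar, a fructose 2,6-bisphosphatase-type regulator, rose by 0.69 ± 0.08, Slc2a6 fell by 0.74 ± 0.07 and the pyruvate dehydrogenase kinase gene Pdk3 fell by 0.59 ± 0.09.

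CDP set against WT GMP compares a dendritic cell progenitor with a progenitor gate of granulocytes and monocytes. Ldhb, Pygl and Pgm2 were lower in CDP by more than 4-fold, and G6pdx, Pfkfb4, Ugp2 and Aldoc higher by 2.02-fold to 2.71-fold. Of the 37 members, 15 rose and 15 fell (81.1% called), where 78.1% of all 11899 genes tested were called, 51.2% higher and 26.9% lower. At least 2-fold, 4 members rose and 7 fell, where 21.6% and 12.8% of all genes did. The members' median was -0.0681, against 0.290 for all genes, and 24 of 37 members lay below the all-gene median. The split depended on the scaling: it was 12 higher and 16 lower with array medians, 8 and 25 with the percentile taken over commonly detected probes, 7 and 24 with normexp background correction, 5 and 26 with quantile normalization and 5 and 25 in the authors' processed value table. Over these scalings the median of all genes moved between -0.203 and 0.307, and signs in lower glycolysis turned under some of them: Gapdh was 0.71 here, -0.71 after quantile normalization and -0.64 in the authors' processed value table.

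Called the same way under every scaling were 5 higher members, Slc16a3, Pfkfb4, Aldoc, G6pdx and Ugp2, and 13 lower ones. G6pdx rose by 1.44 ± 0.05 (SE; 2.71-fold, adjusted p = 1.80e-07), Pfkfb4 by 1.43 ± 0.06 (2.69-fold), Ugp2 by 1.03 ± 0.06, Aldoc by 1.02 ± 0.07 and Slc16a3 by 0.70 ± 0.06. Ldhb fell by 2.64 ± 0.26 (6.25-fold, adjusted p = 3.05e-05), Pygl fell by 2.34 ± 0.05 (5.07-fold, adjusted p = 1.37e-08) and Pgm2 fell by 2.28 ± 0.08 (4.85-fold). The size for Pgm2 varied, from -2.77 to -1.28 under the other scalings. Pfkl fell by 1.63 ± 0.07, Pdha1 fell by 1.24 ± 0.09 and Pgd fell by 1.11 ± 0.07, the last in contrast with G6pdx, the enzyme before it. Fbp1 fell by 1.01 ± 0.24 against the single WT GMP array, a call that did not hold under every scaling. Pdk1 was not called, at -1.45 (adjusted p = 0.0527), in a fit whose spread includes the 2 Neu arrays that disagreed on it. On the 4 arrays of this comparison alone it was called (adjusted p = 2.15e-04). The other 7 lower members that held were Hk1, Hk3, Pfkm, Pfkfb3, Eno1, Pygb and Gys1, with differences from -0.87 to -0.37; the probes of Pfkfb3 disagreed, from -0.79 to 0.26. Of 54 other pathway genes tested, 20 rose and 23 fell. Stbd1 rose by 4.38 ± 0.36 and Slc2a6 by 2.65 ± 0.07, while Pgam2, the muscle-type phosphoglycerate mutase, was at least 2.15-fold and Galm, galactose mutarotase, at least 2.06-fold lower. Proliferation genes averaged 5.54 to 5.56 in CDP and 4.38 to 4.40 in WT GMP, and monocyte markers 4.26 to 4.29 in CDP and 0.44 to 0.45 in WT GMP; of the erythroid markers, 5 of 5 tested fell by at least 2-fold in CDP. Basophil and mast cell markers averaged -1.75 to -1.62 in CDP, where Fcer1a and Ms4a2 were not above background, and 3.07 to 3.13 in WT GMP, and 5 of 5 fell. The part of these in the differences was not tested.

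Pre-cDC and CDP are successive stages of the dendritic cell lineage. Hk3, Tpi1, Aldoa, Gbe1, Ldha, Pgam1, Pgm1, Tkt, Gpi1, Pgk1 and Pfkm were lower in pre-cDC by at least 2-fold, Fbp1 was at least 13.3-fold lower, and Slc16a1 and Pfkp were higher. The bound for Fbp1 is on the scaling of the report. Its difference ran from -4.48 to -1.88 under the other scalings. Of the 37 members, 9 rose and 24 fell (89.2% called), where 84.1% of all 11480 genes tested were called, 25.3% higher and 58.8% lower. The share of members lower, 24 of 37, was thus near that of all genes. At least 2-fold, 2 members rose and 12 fell, where 13% and 27.8% of all genes did, so the count that fell is also near the background. The members' median, -0.464, was close to that of all genes, -0.495, and 20 of 37 members lay above it. Under other scalings the median of all genes moved between -1.01 and 0.0136. The split was 2 higher and 26 lower with array medians, 14 and 14 with the percentile over commonly detected probes, 14 and 17 with quantile normalization, 14 and 16 in the authors' processed value table and 10 and 18 with normexp.

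Under every scaling 2 members were called higher and 14 lower. Slc16a1 rose by 2.37 ± 0.19 (SE; adjusted p = 8.49e-06) and Pfkp rose by 1.14 ± 0.10 (adjusted p = 1.67e-05). In CDP Slc16a1 was near background, at -2.78 and -2.98, where the lowest signals well above background were -2.98 and -3.35. Its difference ran from 0.72 to 2.88 under the other scalings. Hk3 fell by 2.46 ± 0.09 (5.50-fold, adjusted p = 1.89e-07), Tpi1 by 1.997 ± 0.06 (3.99-fold), Aldoa by 1.88 ± 0.06 and Gbe1 by 1.82 ± 0.17. Ldha fell by 1.68 ± 0.07, with probes from -1.68 to -0.07, Pgam1 by 1.63 ± 0.06, Pgm1 by 1.57 ± 0.05, Tkt by 1.32 ± 0.10, Gpi1 by 1.12 ± 0.05, Pgk1 by 1.08 ± 0.07 and Pfkm by 1.08 ± 0.10. Hk1 and Ugp2 also fell under every scaling, by 0.80 ± 0.06 and 0.87 ± 0.06 here, although the second Hk1 probe read 0.07. In contrast, the Pygl difference, -0.25, turned positive in 3 of the scalings. Pdk1 was not called, at -1.37 (adjusted p = 0.0595), with the spread pooled over all groups. It was called on the 4 arrays of this comparison alone (adjusted p = 4.04e-04). Of 53 other pathway genes tested, 10 rose and 35 fell. Ppp1r3b, a glycogen-targeting phosphatase subunit, rose by 2.38 ± 0.08 and Pgam2 was at least 1.59-fold higher, while Egln3 fell by 2.06 ± 0.11 and Nhlrc1, the ubiquitin ligase malin, was at least 4.76-fold lower. Neutrophil markers averaged 0.36 to 0.43 in pre-cDC, where Cxcr2 and Mmp9 were not above background, and -4.14 to -4.01 in CDP, where 7 of 8 were not. Basophil and mast cell markers averaged 0.45 to 0.62 in pre-cDC and -1.75 to -1.62 in CDP, and 4 of 4 tested rose by at least 2-fold. Their part in the differences was not tested.

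CD8+ cDC set against pre-cDC compares a mature splenic cell with a marrow precursor, so tissue, slide and stage differ together. Ldhb, Slc2a3, Slc16a3 and G6pdx were lower in CD8+ cDC by more than 5-fold, and Pfkfb3, Hk3 and Aldoc higher by 3.95-fold to 6.38-fold. Of the 36 members tested, 10 rose and 20 fell (83.3% called), where 74.9% of all 12596 genes tested were called, 40.2% higher and 34.7% lower. At least 2-fold, 5 members rose and 11 fell, where 16.8% and 16% of all genes did. The members' median was -0.376, against 0.0782 for all genes, and 22 of 36 members lay below the all-gene median. With array medians the split was 13 higher and 14 lower. Fbp1 was below background in both groups and was not tested.

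Ldhb fell by 4.65 ± 0.26 (SE; 25.1-fold, adjusted p = 1.29e-06), with 1 of 2 CD8+ cDC arrays above background, and fell by 2.38 with normexp background correction. Slc2a3 fell by 2.84 ± 0.08 (7.15-fold, adjusted p = 3.03e-08), Slc16a3 by 2.83 ± 0.06 (7.12-fold) and Slc16a1 by 1.04 ± 0.19, so 3 of 4 transporters fell. G6pdx fell by 2.37 ± 0.05 (5.19-fold, adjusted p = 1.56e-08), Pdha1 by 1.42 ± 0.09, Pfkfb4 by 1.39 ± 0.06, Pkm by 1.12 ± 0.07, Hk1 by 1.02 ± 0.06 and Gapdh by 1.02 ± 0.06. Pfkm fell by 1.32 ± 0.10, but read 0.41 in the authors' processed value table. Upward, Pfkfb3 rose by 2.67 ± 0.06 (6.38-fold, adjusted p = 1.08e-08) while its paralogue Pfkfb4 fell. Hk3 rose by 2.22 ± 0.09 (4.64-fold) while Hk1 fell, and Ldha rose by 1.11 ± 0.07 while Ldhb fell. The 3 Ldha probes ran from 0.14 to 1.11. Aldoc rose by 1.98 ± 0.07 (3.95-fold) and Pgm1 by 1.19 ± 0.05. Under every scaling 9 members were called higher and 13 lower. Of 56 other pathway genes tested, 29 rose and 16 fell, with Eno2 and Eno3, the neuronal and muscle enolases, at 2.88 ± 0.24 and 2.54 ± 0.07. Galm was at least 1.47-fold higher and Egln3 at least 6.62-fold lower. Proliferation genes averaged 3.17 to 3.25 in CD8+ cDC and 4.999 to 5.071 in pre-cDC, and neutrophil markers -1.51 to -1.43 in CD8+ cDC and 0.36 to 0.43 in pre-cDC. GMP and primary granule genes averaged -1.793 to -1.754 in CD8+ cDC and 4.185 to 4.233 in pre-cDC. Monocyte markers averaged -0.98 to -0.83 in CD8+ cDC and 3.79 to 3.87 in pre-cDC. B cell markers averaged -2.80 to -2.55 in CD8+ cDC and -4.42 to -4.18 in pre-cDC, where none was above background. Basophil and mast cell markers averaged -5.01 to -4.87 in CD8+ cDC, where 4 of 5 were not above background, and 0.45 to 0.62 in pre-cDC, and 4 of 4 tested fell. The part of these in the differences was not tested.

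CD4+ cDC can be set beside CD8+ cDC only as a description over the 39340 probes both designs hold, since array design and cell type cannot be told apart. On this scale 36 members had a probe on both designs, and Fbp1 did not. Relative to CD8+ cDC, 6 were at least 2-fold higher in CD4+ cDC and 7 lower, where 17.2% and 19.9% of 13532 genes were. Slc2a3 read 3.03 and 3.19 in CD4+ cDC and -1.44 and -1.59 in CD8+ cDC. Pygl read 3.45 on both CD4+ cDC arrays and 0.68 on both CD8+ cDC arrays. All 4 CD4+ cDC values lay above their CD8+ cDC counterparts, and Slc16a3 and Gbe1 were higher in CD4+ cDC as well, by 1.84 and 1.17. Ldhb read -0.45 and -0.42 in CD4+ cDC and -5.46 and -4.51 in CD8+ cDC. Pfkfb4 read 2.08 and 2.06 in CD4+ cDC and -0.06 and 0.00 in CD8+ cDC. In the other direction, Hk3 read -0.23 and -0.75 in CD4+ cDC and 2.93 and 3.08 in CD8+ cDC. Aldoc read -0.11 and -0.27 in CD4+ cDC and 2.46 and 2.61 in CD8+ cDC. Pfkp, Pgk1, Slc16a1, Pgam1 and Ldha were lower in CD4+ cDC as well, by 2.32, 1.85, 1.47, 1.13 and 1.07. The members' median difference, -0.0164, was close to that of all genes, -0.0258.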

How the data were processed

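The authors deposited 1 scanner file per array, and per the file headers Agilent Feature Extraction 10.7.3.1 extracted the intensity of each spot as a single-colour Cy3 signal that is background-subtracted. The authors also deposited a table of processed values, used here in log2 as an alternative, without leaving out outlier spots. Its columns had the same sorted values and a median intensity of 46.0 on each array. They correlated with the scanner's values at 0.992 to 0.999, so the table's scale is linear. How it was made was not stated. Quantile normalization yields columns of this kind, so this table and quantile normalization are not separate checks among the scalings. Per the labels' protocols RNA was amplified with a low-input single-dye kit.

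Control spots and outlier spots were left out, spots of a probe were averaged, and probes were named through their accession and RefSeq. Signals were divided by the array's 75th percentile and taken to log2; each gene took its brightest probe. A single limma 3.58.1 fit in R 4.3.3 (lmFit, contrasts.fit and eBayes) covered 12 arrays and 13574 genes. A comparison tested genes whose signal was well above background on both arrays in either group. The fit was tested on simulated data. The mean spot signal was absent from the files, so normexp (offset 50) used the spot and background medians. All 37 members are accounted for; values on every array are given for the 12 with the widest range of group means, the 6 with the largest called change for IRF8KO, and their isozymes; called members past 2-fold are named in each comparison, and up to 4 other pathway genes. The members, lists and tests were chosen with earlier results of these data known. Ly6C+ monocytes, named in the series title, were not analysed here. The mean level of the erythroid marker list is not reported here. The alternatives were 4 other scalings or background corrections, the authors' table, averaging probes, no filter, the 4 arrays alone, a replicate block and leaving out each array.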

Additional observations from a re-analysis of the deposited data

How the results depend on the processing

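The 221 differences of members were recomputed 2870 times in all under the alternatives. Among members called in the report, 99 recomputed values lost the call with the sign kept. A further 63 turned the sign, of which 38 were called in the opposite direction and 25 were not called. The turns came from scaling and from averaging probes. Among members not called in the report, 79 recomputed values were called in the same direction, 9 were called in the opposite one and 32 turned their sign without a call, 10 of these with an array left out. Leaving out an array, the 4 arrays alone, the replicate block and the absent filter turned the sign of no call. The cause was not tested. For Neu against WT GMP the sign turned with array medians for Hk1 at -0.0435 and Pgam1 at -0.14, in the authors' processed value table for Hk1 at -0.0387, with probes averaged for Hk1 at -0.17, with quantile normalization for Hk1 at -0.0831, with normexp for Pgam1 at -0.0229 and with the percentile over detected probes for Pgam1 at -0.00144. For Neu against CD8+ cDC the sign turned with array medians for Pgm1 at -0.0582, in the authors' processed value table for Pgm1 at -0.15, with the percentile over detected probes for Pgm1 at -0.15 and with quantile normalization for Pgm1 at -0.15. For CDP against WT GMP the sign turned in the authors' processed value table for Aldoa at -0.24, Gapdh at -0.64, Gpi1 at -0.60, Ldha at -0.50, Pgam1 at -0.30, Pgk1 at -0.60, Pkm at -0.52, Tkt at -0.12 and Tpi1 at -0.44. It turned with quantile normalization for Aldoa at -0.25, Gapdh at -0.71, Gpi1 at -0.62, Ldha at -0.51, Pgam1 at -0.31, Pgk1 at -0.61, Pkm at -0.54, Tkt at -0.12 and Tpi1 at -0.46. It turned with normexp for Gpi1 at -0.16, Hk2 at -0.0598, Pgam1 at -0.15, Pgk1 at -0.38, Pkm at -0.42 and Tpi1 at -0.20. It turned with the percentile over detected probes for Gpi1 at -0.11, Hk2 at -0.12, Pgk1 at -0.32, Pkm at -0.29 and Tpi1 at -0.19. It turned with probes averaged for Ldha at -0.24 and Tpi1 at -0.0272. For pre-cDC against CDP the sign turned in the authors' processed value table for G6pdx at 0.12, Gapdh at 0.52, Pgd at 0.33, Pkm at 0.24 and Pygl at 0.18. It turned with quantile normalization for G6pdx at 0.0832, Gapdh at 0.57, Pgd at 0.30, Pkm at 0.22 and Pygl at 0.14. It turned with the percentile over detected probes for Gapdh at 0.11, Hk2 at 0.0274, Pdha1 at 0.044, Pfkfb3 at 0.0961, Pgd at 0.29, Pkm at 0.12, Pygl at 0.26 and Slc2a1 at 0.12. It turned with array medians for Pfkfb4 at -0.26 and Slc16a3 at -0.18. For CD8+ cDC against pre-cDC the sign turned in the authors' processed value table for Pfkm at 0.41. Not called in the report but called with the opposite sign were Gbe1 for CD8+ cDC against pre-cDC, at 0.30 without pre-cDC replicate 1 (-0.015 with all arrays, and called at -0.33 without pre-cDC replicate 2), Slc16a1 for CDP against WT GMP, at 0.72 with normexp, and Pfkl for pre-cDC against CDP, at -0.50 with array medians. Taldo1 for CDP against WT GMP was -0.6389 in the authors' processed value table, -0.6372 with quantile normalization, -0.39 with normexp and -0.30 with the percentile over detected probes. Gapdh for the arrays labelled IRF8KO against WT GMP was -0.23 in the authors' processed value table and -0.25 with quantile normalization. The members' median turned to -0.0135 (authors' processed value table) and -0.0128 (quantile normalization) for the arrays labelled IRF8KO against WT GMP, and to 0.044 (percentile over detected probes) for pre-cDC against CDP.

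Of the counts of members called, that for the arrays labelled IRF8KO moved by over 1.5 times: 16 in the report, 9 with array medians, and 10 to 14 when an array was left out. Over all genes the same comparison had 3119 calls, 1535 with array medians, 1913 and 1996 without IRF8KO replicate 1 and 2, and 2012 and 1947 without WT GMP replicate 1 and 2. Leaving out an array gave 35 to 35 members for Neu against WT GMP, 27 to 27 for CDP against WT GMP, 32 to 33 for pre-cDC against CDP, 31 to 32 for CD8+ cDC against pre-cDC and 34 to 35 for Neu against CD8+ cDC; where this left a group with 1 array, that array was assumed to vary like the other groups. Same-numbered arrays did not deviate together (15 pairs of groups, r = -0.211 to 0.0768 over 8722 genes). With the replicate block 15 members were called for the arrays labelled IRF8KO against WT GMP, 35 for Neu against WT GMP, 29 for CDP against WT GMP, 33 for pre-cDC against CDP, 31 for CD8+ cDC against pre-cDC and 35 for Neu against CD8+ cDC. Signals near background limit Fbp1, Ldhb, Pdk1 and Pygb in the groups named in the report, and Slc16a1 in CDP.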
